A study of Mus musculus with 6 samples.

Results

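The 10 genes described here carry fatty acids into skeletal muscle and break them down in its mitochondria: *Cd36*, *Lpl* and *Fabp3* for uptake, *Cpt1b* and *Cpt2* for entry into mitochondria, and *Acadvl*, *Acadl*, *Acadm*, *Hadha* and *Hadhb* for beta-oxidation. They were chosen by name, as the rows with these gene symbols, from 23997 symbols in the deposited tables, of which 13359 were abundant enough to test. RNA sequencing (RNAseq) was performed on gastrocnemius, a calf muscle of mixed fiber type, from 3 mice with a heterozygous mutation of *Hras* and 3 wild-type (WT) littermates, all 21 days old and untreated, with 1 library per mouse. The mutant animals were Caggs-Cre+/HrasG12V/+ (HrasG12V; mice 2276, 2278 and 2279) and the WT animals were Caggs-Cre-/HrasflG12V/+ (mice 2277, 2280 and 2281), a cross that models Costello syndrome. The WT mice therefore carried the floxed G12V allele without recombination and lacked the Cre transgene, which all mutant mice carried, so an effect of Cre itself cannot be told apart from that of the mutation. The CAG promoter that drives Cre is active in nearly all tissues, so the mutant allele, read from the *Hras* gene's own promoter, was not limited to muscle. Both parental lines were kept on a mixed background of SWR/J, 129S1/SvImJ and C57BL/6J.

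Fatty acids reach a muscle fiber by a chain of steps. Lipoprotein lipase (*Lpl*) releases them from triglyceride at the capillary wall, *Cd36* helps to move them across the plasma membrane, and the cytosolic binding protein *Fabp3* carries them in the fiber. *Cpt1b*, the muscle form of carnitine palmitoyltransferase and the step that malonyl-CoA inhibits, links the acyl group to carnitine, and *Cpt2* gives it back to coenzyme A inside the mitochondrion. The acyl-CoA dehydrogenases of very long, long and medium chains (*Acadvl*, *Acadl*, *Acadm*) then start each cycle of beta-oxidation, and the mitochondrial trifunctional protein, built from *Hadha* and *Hadhb*, carries out the remaining steps on long chains. The nuclear receptors of the PPAR and ERR families, with the coactivator PGC-1alpha (*Ppargc1a*), are known to drive many of these genes, most strongly in oxidative fibers and during fasting.

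Because the genes of this pathway are known to share nuclear receptors, the 250 bases upstream of each RefSeq start (GRCm38.p6) were searched for short motifs on both strands. RefSeq promoters were matched for 8 of the 10 genes, all but *Lpl* and *Cpt1b*. The nuclear receptor motif AGGTCA lay upstream of 3 of these 8 genes, against 14.0% of 32851 mouse promoters. Windows of 60 bases around the 3 matches are printed 5′ to 3′ on each gene's own strand (minus for all 3), with the motif, or its reverse complement TGACCT, in capitals.
Acadm, chr3:153944834-153944893: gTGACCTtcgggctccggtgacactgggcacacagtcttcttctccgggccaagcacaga
Cd36, chr5:17836087-17836146: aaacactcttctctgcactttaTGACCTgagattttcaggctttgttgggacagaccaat
Acadvl, chr11:70015483-70015542: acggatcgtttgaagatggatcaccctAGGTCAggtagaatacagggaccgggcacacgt
The match began 249 bases upstream of the RefSeq start for *Acadm*, 228 bases for *Cd36* and 87 bases for *Acadvl*. *Cd36* has several alternative starts, and the RefSeq start lies 52905 bases inside the outermost GENCODE start, so that its window is within an annotated longer form of the gene. The longer ERR motif TCAAGGTCA, which contains AGGTCA, was in 0 of the 8 (0.387% of all promoters), the DR1 arrangement that PPAR binds was also in 0 (0.0335%), the GC box GGGCGG was in 5 (*Acadl*, *Cpt2*, *Cd36*, *Hadha* and *Hadhb*; 32.7%), and CCAAT was in 1 (*Cd36*; 33.8%). The upstream windows of *Hadha* and *Hadhb* share 228 bases, so their GC boxes are largely the same sites. A match describes the letters only and was not tested as a binding site.

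The genes for both subunits of the trifunctional protein stand head to head on chromosome 5, *Hadha* (30118304 to 30155162) on the minus and *Hadhb* (30155248 to 30184593) on the plus strand (GRCm38). The outermost starts of these genes in GENCODE vM21 are separated by 85 bases, which are shown because every base of them lies upstream of both genes. The RefSeq starts used for the motif search are farther apart, with 272 bases between them, that of *Hadha* lying 182 bases inside its outermost GENCODE start. The sequence is given on the plus strand, with GC boxes in capitals.
Hadha to Hadhb, chr5:30155163-30155247: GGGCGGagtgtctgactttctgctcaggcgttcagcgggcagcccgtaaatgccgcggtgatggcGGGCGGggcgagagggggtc
It is 69.4% G or C and holds a GC box at positions 1 and 66, counted from its left end.

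Expression was given as FPKM, the number of sequenced fragments scaled to transcript length and library size, so that levels are per length and genes can be compared, and each fold change below is a difference of log2(FPKM + 0.1) from limma. The level of *Hras* itself was 36.8, 36.0 and 51.8 FPKM for WT mice 2277, 2280 and 2281 and 58.8, 28.9 and 16.0 FPKM for HrasG12V mice 2276, 2278 and 2279; these levels sum both alleles and do not show the substitution. Several libraries stood apart before any comparison. Mouse 2276 summed to 814013 FPKM against 413020 to 547122 in the other 5. WT mouse 2281 nearly lacked slow-fiber transcripts, with 8 oxidative fiber markers summing to 163 FPKM against 1219 to 3934 elsewhere and the slow myosin *Myh7* at 0.44 against 95.2 to 245. HrasG12V mice 2278 and 2279 held 92.4 and 81.9 FPKM of 8 B and T cell markers against 1.29 to 2.32 in the other 4, and 264 and 202 FPKM of 8 adipocyte markers against 11.9 to 62.9. Transcripts of 4 Y linked genes summed to at most 0.17 FPKM in WT mouse 2277 and HrasG12V mouse 2276 and to 70.7 to 80.0 in the other 4; the labels give no sex. Skeletal actin *Acta1* and the fast-fiber genes *Myh4* and *Atp2a1* were listed at 0 in all 6 libraries, *Ckm* in 5, *Tnnt3* in mouse 2276 and *Myh1* in mice 2277 and 2280, while *Des* lay at 635 to 1804 FPKM, *Ttn* at 151 to 239 and *Ryr1* at 254 to 578. A listed 0 may be a failed estimate and is not read here as absence of the transcript. None of the 10 fatty acid genes was listed at 0 in any library.

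All 10 genes had lower fitted levels in HrasG12V than in WT muscle, by a median of 0.45 on the log2 scale, but 5 of the 10 turned higher, with a median of 0.01, when libraries were scaled to their citric acid cycle genes. That scaling, added after the data were seen, adds the same amount to the fold change of every gene and left 10.9% of all genes lower. Its reference genes were themselves lower in HrasG12V muscle for 16 of 17 (median -0.37), so it moved every fold change upward. The genotypes overlapped for every gene. The median was -0.07 without mutant mouse 2278 and -0.73 without mutant mouse 2276. Negative fold changes made up 53.4% of all genes tested, whose median was -0.03. At an adjusted p under 0.05 (limma, Benjamini-Hochberg), 0 of the 10 were called, beside 0.0599% of all genes. At an unadjusted p under 0.05, *Cd36* alone was called lower, beside 4.99% of all genes, and 0 were called higher, beside 5.18%. No gene of the 10 had all 3 mutant mice below all WT mice, a pattern held by 10.4% of all genes, or all 3 above, held by 8.11%. The share called therefore stayed near that of all genes. Each genotype is represented by separate animals. The p-values rest on the spread between mice within the groups (n = 3 each), moderated by limma toward genes of similar abundance. In bulk muscle fewer cells of a type cannot be told apart from less RNA per cell.

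**Figure D1:**
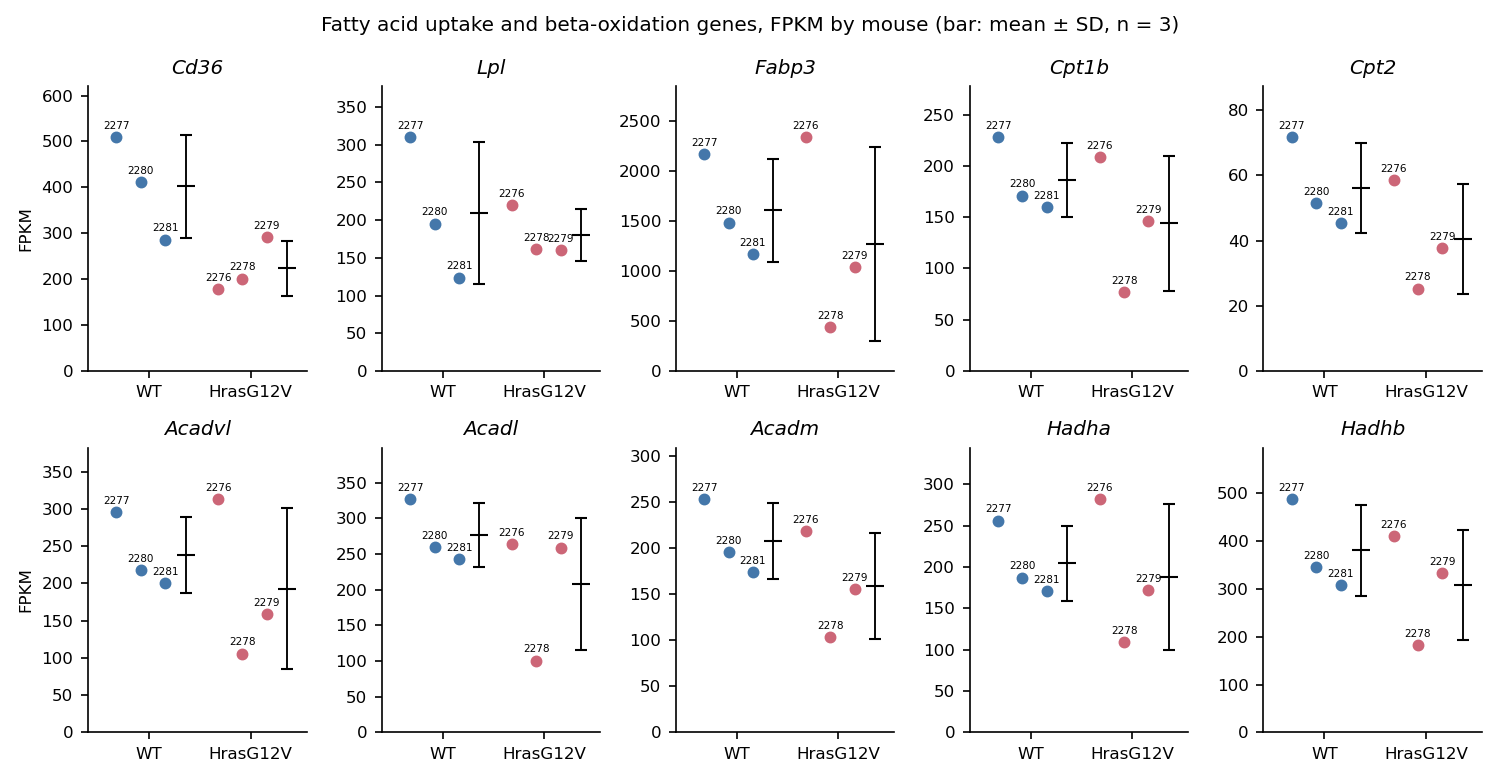
FPKM (vertical axes, from 0) of the 10 genes in each WT (blue) and HrasG12V (red) mouse, with the mouse number above each point and the mean ± SD of 3 mice as a black bar. In all 10 panels the points of the genotypes overlap, mouse 2277 is the highest and 2281 the lowest WT point, and in 8 panels mouse 2278 is the lowest of the 6.

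Of the uptake genes, *Cd36* (chromosome 5, 17781690 to 17888801, minus strand, GRCm38), the fatty acid translocase, had levels of 509, 411 and 286 FPKM (WT mice 2277, 2280 and 2281) and of 178, 201 and 291 FPKM (HrasG12V mice 2276, 2278 and 2279). The groups touched at a single point, mutant mouse 2279 lying just above WT mouse 2281. Its mean was 402 ± 112 FPKM in WT and 223 ± 59.8 in HrasG12V muscle (SD, n = 3), a log2 fold change of -0.84 ± 0.33 (SE) with a 95% interval of -1.64 to -0.04. The unadjusted limma p was 0.042 and the adjusted p 0.483. The direction was kept in all 19 other analyses and the unadjusted call in 10; the call was lost without any of mice 2277, 2280, 2276 or 2278, and without WT mouse 2277 the fold change was -0.65.

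*Lpl* (chromosome 8, 68880491 to 68907448, plus strand) was at 309.8, 195 and 124 FPKM in the WT mice and at 220.3, 162 and 159.8 in the mutants. All 3 mutant values lay inside the WT range, and the fold change was -0.13 ± 0.38 (log2, SE; limma adjusted p = 0.941, interval -1.04 to 0.77); it was 0.20 without WT mouse 2277. *Fabp3* (chromosome 4, 130308595 to 130315463, plus strand), the heart and muscle fatty acid binding protein, was the most abundant of the 10 in both genotypes. Its level was 2167, 1479 and 1166 FPKM in the WT and 2332, 435 and 1034 FPKM in the HrasG12V mice. The mutant group thus held both the highest and the lowest of the 6 values, and its coefficient of variation was 76.5% against 31.9% in WT. The *Fabp3* fold change was -0.61 ± 0.65 (limma adjusted p = 0.801), and without mouse 2278 it was 0.00091.

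Of the carnitine steps, *Cpt1b* (chromosome 15, 89416405 to 89425863, minus strand) was at 228, 171 and 159.9 FPKM in WT and 209, 77.0 and 146 in HrasG12V mice, in the order of mice given above. Mouse 2278 stood at less than any other library, whereas 2276 lay between the WT values. *Cpt2* (chromosome 4, 107903981 to 107923610, minus strand), the least abundant of the 10, was at 71.7, 51.5 and 45.4 FPKM in WT and 58.6, 25.3 and 37.6 in HrasG12V mice. Mutant mice 2278 and 2279 were below all WT mice and 2276 was above 2280 and 2281. The fold changes were -0.47 ± 0.40 for *Cpt1b* and -0.53 ± 0.35 for *Cpt2* (log2, SE; limma adjusted p = 0.733 and 0.657). Without mouse 2278 they were -0.08 and -0.23, without mouse 2276 -0.80 and -0.84, and scaled to the citric acid cycle genes -0.0049 and -0.06. *Cpt1a*, the liver form of the first enzyme, was far lower, at 9.17, 9.02 and 8.44 FPKM in WT and 4.42, 7.31 and 7.91 in HrasG12V mice, with every mutant below every WT mouse (fold change -0.48 ± 0.24; limma unadjusted p = 0.088, adjusted p = 0.553). The ratio of *Cpt1b* to *Cpt1a*, which does not depend on the scaling of a library, was 24.9, 19.0 and 18.9 in WT and 47.2, 10.5 and 18.5 in HrasG12V mice. The mutant ratios spanned the WT range on both sides (difference of mean log2 ratios 0.01, two-sided exact permutation p = 1, n = 3 per group, where 0.1 is the smallest p possible).

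*Acadvl* (chromosome 11, 70010183 to 70015411, minus strand), which acts on very long chains, was at 296, 218 and 200.3 FPKM in WT and 314, 106 and 159 in HrasG12V mice. *Acadl* (chromosome 1, 66830839 to 66863277, minus strand), for long chains, was at 327, 259 and 243 FPKM in WT and 264, 101 and 259 in HrasG12V mice. *Acadm* (chromosome 3, 153922357 to 153944632, minus strand), for medium chains, was at 254, 196 and 174 FPKM in WT and 218, 103 and 155 in HrasG12V mice. For each of the 3 enzymes mouse 2278 was the lowest of the 6, and mouse 2276 was the highest mutant. *Acadl* differed from the others in mouse 2279, which nearly matched WT mouse 2280 for it but was below all WT mice for *Acadvl* and *Acadm*. The fold changes were -0.43 ± 0.43, -0.53 ± 0.43 and -0.43 ± 0.34 (log2, SE), with limma adjusted p of 0.783, 0.720 and 0.714; scaled to the citric acid cycle genes, those of *Acadvl* and *Acadm* became 0.035 and 0.031, and that of *Acadl* -0.06. Without mouse 2278 the 3 were -0.07, -0.07 and -0.16, and without mouse 2276 they were -0.85, -0.76 and -0.70. In the latter analysis *Acadvl* and *Acadm* passed an unadjusted limma p under 0.05, beside 29.9% of all genes.

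*Hadha*, the alpha subunit of the trifunctional protein, was at 256, 187 and 171 FPKM in WT and 282, 109 and 172 in HrasG12V mice, and *Hadhb*, the beta subunit, was at 489, 346 and 308 in WT and 410.1, 183 and 333 in HrasG12V mice. Both genes were lowest in mouse 2278, and *Hadha* was highest in mouse 2276. These were, after *Lpl*, the smallest differences among the 10, at -0.21 ± 0.39 for *Hadha* and -0.35 ± 0.39 for *Hadhb* (log2, SE; limma adjusted p = 0.898 and 0.807), and both changed sign when scaled to the citric acid cycle genes, as did *Hadha* without mouse 2278 (0.13, with *Hadhb* then at -0.01). The ratio of *Hadha* to *Hadhb* was 0.525, 0.541 and 0.556 in WT mice, a narrow range, and 0.689, 0.596 and 0.517 in HrasG12V mice. Mice 2276 and 2278 were above the WT range and 2279 was below it (difference of mean log2 ratios 0.14, two-sided exact permutation p = 0.4, n = 3 per group). Without mouse 2276 the difference was 0.04, and without mouse 2279 it was 0.25. The *Hadha* annotation overlaps *Garem2* by 75 bases and that of *Acadvl* overlaps *Dvl2* by 2119 bases on the opposite strand, and *Cpt1b* lies within the readthrough gene *Gm44502* on its own strand. How reads were divided between such genes was not given in the sources used here; *Dvl2* was at 2.10 to 3.88 FPKM.

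**Figure D2:**
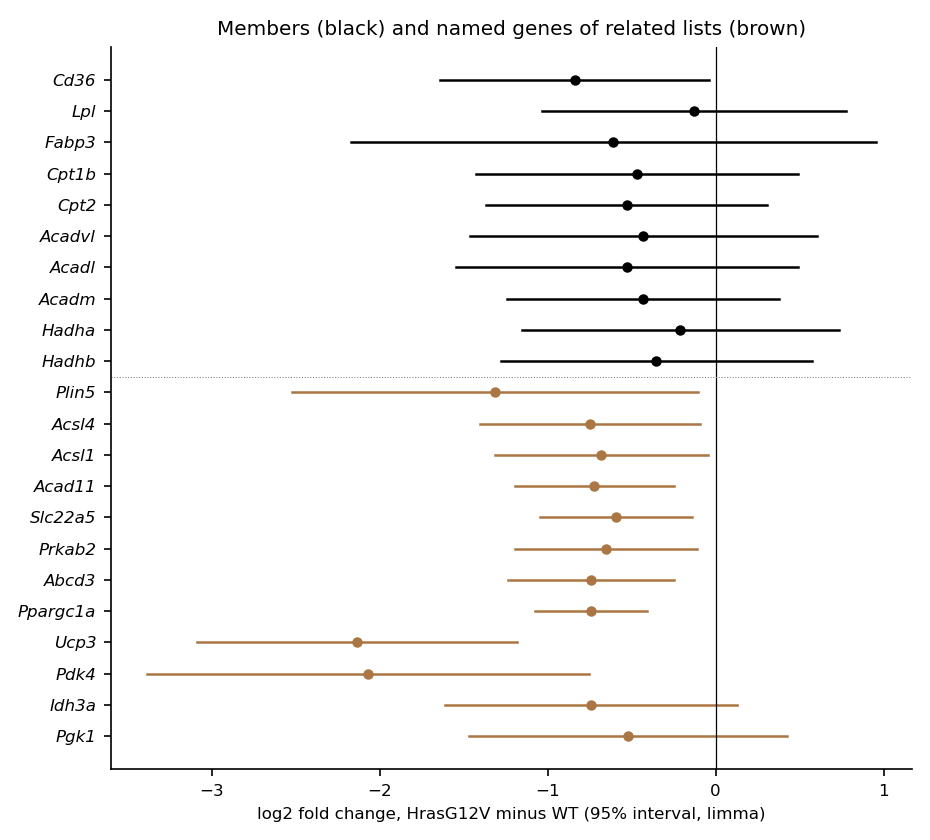
Log2 fold change, HrasG12V minus WT (horizontal axis), with its 95% limma interval, for the 10 genes (black) and for the genes named from related lists (brown). Of the 10, the *Cd36* interval alone ends below 0; that of *Fabp3* is the widest. Scaled to citric acid cycle genes, *Lpl*, *Acadvl*, *Acadm*, *Hadha* and *Hadhb* turn positive.

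The 10 genes moved largely together from mouse to mouse. Within WT, mouse 2277 was the highest and mouse 2281 the lowest for all 10 genes. Their median position relative to the WT mean of each gene was 0.36 for 2277, -0.09 for 2280 and -0.26 for 2281 on the log2 scale. Among the mutants it was 0.15 for 2276, -1.08 for 2278 and -0.37 for 2279. Mouse 2278 thus held a median of 47.4% of the WT level and was the lowest of all 6 mice for 8 of the 10 genes, whereas mouse 2276 held 111% and exceeded every WT mouse for *Fabp3*, *Acadvl* and *Hadha*. Mouse 2278 was below all WT mice for 9 of the 10, all but *Lpl*, and 2279 for 5.

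**Figure D3:**
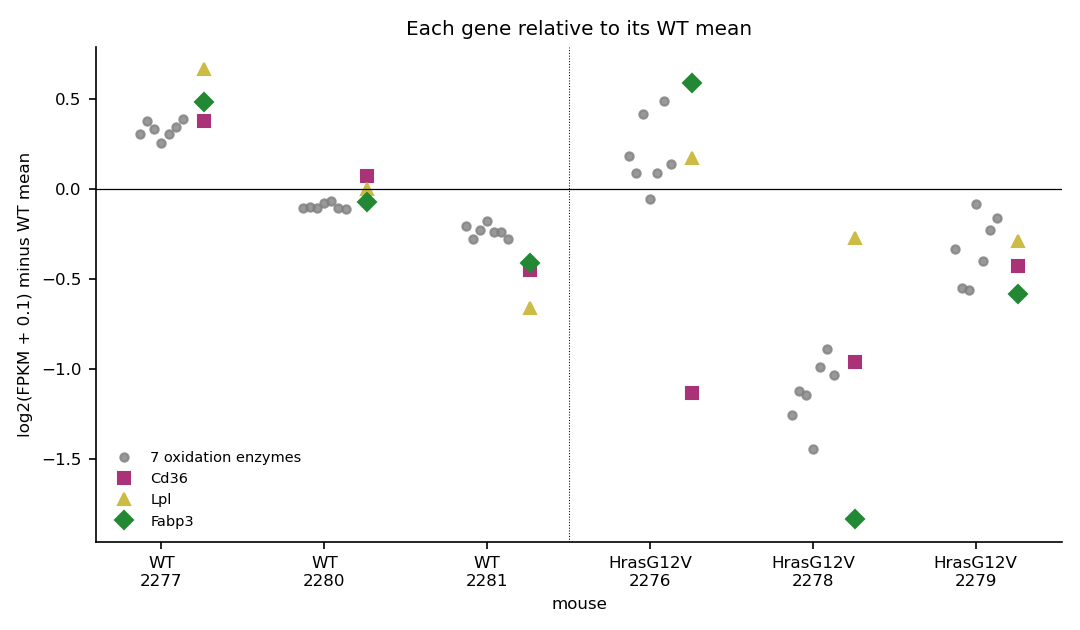
Log2(FPKM + 0.1) minus the gene's WT mean (vertical axis) in each of the 6 mice, for the 7 oxidation enzymes (gray circles, *Cpt1b* to *Hadhb*), *Cd36* (squares), *Lpl* (triangles) and *Fabp3* (diamonds). The enzymes lie close to each other in the WT mice and are more spread in the mutants, from -0.06 to 0.49 in mouse 2276, where *Cd36* is at -1.13.

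The proportions of the 7 mitochondrial enzymes to each other varied less than their levels. Over the 6 mice, the SD of the log2 ratio of a pair had a median of 0.16 for the 21 pairs of enzymes and of 0.35 for all 45 pairs of the 10 genes, while the SD of a single enzyme's own log2 level was 0.45 to 0.60. For *Cd36* and *Lpl*, the median SD of their ratios to the other genes (0.56 and 0.46) was about that of their own levels (0.58 and 0.46). For *Fabp3* it was 0.43 against 0.88. The steadiest pair was *Cpt2* and *Acadm* (0.08), the least steady pair of enzymes was *Acadvl* and *Acadl* (0.33), and the least steady of all pairs was *Cd36* and *Fabp3* (0.86). *Cd36* left the group in mouse 2276, where it stood at -1.13 relative to its WT mean, or -1.30 relative to the median position of the other 9 genes. In mouse 2278 *Fabp3* was lower than the other genes by a further -0.80 and *Lpl* higher by 0.85. *Fabp3* followed *Acadvl* about as closely (0.32) as *Acadl* did. These points share their libraries, and no test was made of the proportions.

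**Figure D4:**
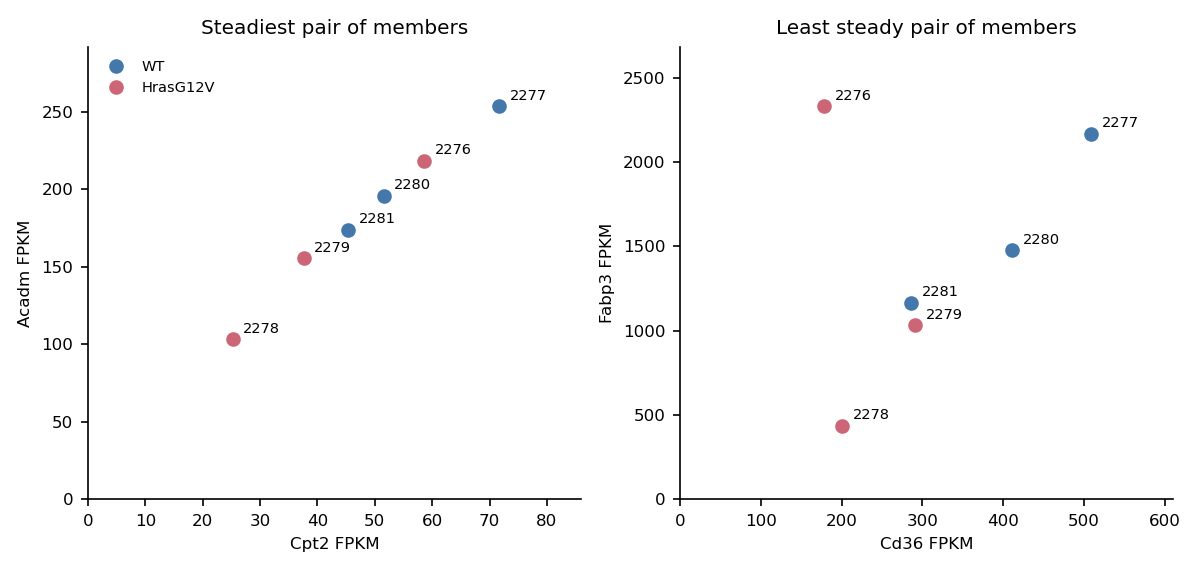
FPKM of *Acadm* against *Cpt2* (left) and of *Fabp3* against *Cd36* (right) in the 6 mice, labeled by number, WT in blue and HrasG12V in red, with both axes from 0. *Cpt2* and *Acadm* lie close to a straight line, and mouse 2276 lies away from the other mice for *Cd36* and *Fabp3*.

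The genes whose pattern was most like that of the 10 were found among 5273 other genes with a mean of at least 10 FPKM, by Pearson's r over the 6 mice with the mean standardized level of the 10. The highest were *Slc25a20* (r = 0.98), the carnitine-acylcarnitine carrier that works between *Cpt1b* and *Cpt2*, then *Decr1* (0.98), which prepares unsaturated chains, *Timp4* (0.98), a metalloproteinase inhibitor, *Etfdh* (0.98), which takes electrons from the acyl-CoA dehydrogenases to ubiquinone, and *Tmem80* (0.98). *Slc25a20* was at 82.4, 65.2 and 50.0 FPKM in WT and 79.4, 30.2 and 49.0 in HrasG12V mice. An r above 0.9 was found for 78 of the 5273 genes (1.48%) and for 5 of the 14 genes compared from a list of other mitochondrial oxidation genes, where the median was 0.89. The median was 0.73 for 17 citric acid cycle genes and 0.61 for 11 glycolytic genes. All points share 6 libraries, and r describes them only.

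The other genes of the pathway were taken from lists fixed by function. In 19 genes of fatty acid supply (lipase partners, transporters, acyl-CoA synthetases, lipid droplet proteins), 12 had lower and 7 higher fitted levels (median -0.10), with 3 called lower and 0 higher at an unadjusted limma p under 0.05; the median was -0.06 without mouse 2278, -0.23 (15 lower) without WT mouse 2281 and -0.32 (14 lower) without mouse 2276. *Plin5*, a lipid droplet protein of oxidative tissue, was at 49.0, 32.5 and 26.6 FPKM in WT and 26.1, 6.71 and 15.6 in HrasG12V mice (-1.31 ± 0.50, limma unadjusted p = 0.037). The *Plin5* fold change was -0.79 without mouse 2278 and -1.76 without mouse 2276. *Acsl1*, the main long-chain acyl-CoA synthetase of muscle, was at 205, 151 and 127 FPKM in WT and 97.8, 84.4 and 116 in HrasG12V mice (-0.68 ± 0.26, limma unadjusted p = 0.039). *Acsl4*, a synthetase that prefers arachidonate, was at 13.6, 14.0 and 15.4 FPKM in WT and 5.53, 10.9 and 10.1 in HrasG12V mice (-0.75 ± 0.27, limma unadjusted p = 0.031). The *Acsl4* fold change was -0.44 without mouse 2276 and -0.93 without mouse 2278. All 3 mutant mice were below all WT mice for each of these genes; their limma adjusted p was 0.475 to 0.481, and each lost the unadjusted call in 6 of 19 other analyses, among them *Plin5* without any of mice 2277, 2280, 2278 or 2279, *Acsl1* without 2277, 2280 or 2278 and *Acsl4* without 2277, 2280 or 2281; scaling to the citric acid cycle genes ended each call too. *Fabp4*, the adipocyte and endothelial binding protein, went the other way without overlap, at 678, 667 and 395 FPKM in WT and 769, 739.9 and 713 in HrasG12V mice (0.39 ± 0.33, limma unadjusted p = 0.270).

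Of 17 other mitochondrial oxidation genes, 15 had lower and 2 higher levels (median -0.35), with 2 called lower; without mouse 2278 the median was -0.11, with 12 lower and 5 higher, without WT mouse 2277 it was -0.22, and without mouse 2276 it was -0.64. *Slc22a5*, the carnitine importer of the plasma membrane, was at 10.2, 8.90 and 9.16 FPKM in WT and 7.75, 5.12 and 6.0 in HrasG12V mice (-0.59 ± 0.19; limma unadjusted p = 0.017, adjusted p = 0.433), and its call was lost without WT mouse 2277, where the fold change was -0.54. *Acad11*, an acyl-CoA dehydrogenase family member, was at 30.2, 21.5 and 26.3 FPKM in WT and 18.2, 14.0 and 14.9 in HrasG12V mice (-0.72 ± 0.20; limma unadjusted p = 0.0092, adjusted p = 0.392). Both were named because they were called, and both were without overlap between genotypes. Of the 17 genes, 3 had all mutant mice below all WT mice, a pattern held by 10.4% of all genes. In 10 genes that set malonyl-CoA (acetyl-CoA carboxylases, the decarboxylase *Mlycd*, AMPK subunits), 5 were lower and 5 higher, and *Prkab2*, the muscle AMPK beta subunit, was the only call, at 85.2, 75.6 and 112 FPKM in WT and 50.3, 57.7 and 63.5 in HrasG12V mice (-0.65 ± 0.23, limma unadjusted p = 0.025), a call lost without mouse 2277 or 2281, after quantile normalization and at the same total FPKM. In that order, the *Prkab2* fold changes were then -0.69, -0.50, -0.60 and -0.67. In 11 tested peroxisomal genes, 10 were lower, and *Abcd3*, a transporter that brings acyl-CoA into peroxisomes, was the only call, at 44.4, 40.9 and 38.7 FPKM in WT and 31.5, 22.1 and 21.5 in HrasG12V mice (-0.74 ± 0.21, limma unadjusted p = 0.0099, adjusted p = 0.398). Scaled to the citric acid cycle genes, the fold changes became -0.13 for *Slc22a5*, -0.26 for *Acad11*, -0.19 for *Prkab2* and -0.28 for *Abcd3*, and all 4 calls were lost (limma unadjusted p = 0.248 to 0.644).

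In 12 transcriptional regulators of the pathway, 10 were lower (median -0.53) and *Ppargc1a* was the only call, at 9.19, 8.96 and 10.1 FPKM in WT and 5.48, 5.22 and 6.05 in HrasG12V mice (-0.74 ± 0.14; limma unadjusted p = 0.0013, adjusted p = 0.288), a call lost when scaled to the citric acid cycle genes (-0.28, unadjusted p = 0.463). *Ppara* was at 10.9, 7.91 and 5.97 FPKM in WT and 7.22, 3.35 and 3.64 in HrasG12V mice (-0.83 ± 0.35, unadjusted p = 0.052). Of 6 classical PPAR targets of muscle, 5 were lower (median -0.99) and 2 were called, *Ucp3* (-2.14 ± 0.40, limma unadjusted p = 0.0013) and *Pdk4* (-2.07 ± 0.55, limma unadjusted p = 0.0079), which kept an unadjusted p under 0.05 in all 19 other analyses. The median of the 6 ranged from -0.54 without WT mouse 2277 and -0.62 without mutant mouse 2278 to -1.64 without mutant mouse 2279. *Ucp3* was at 120.0, 80.6 and 128 FPKM in WT and 37.1, 13.9 and 28.1 in HrasG12V mice, and *Pdk4* at 1241, 857 and 681 in WT and 239.9, 101 and 405 in HrasG12V mice, so the highest mutant was 2276 for *Ucp3* and 2279 for *Pdk4*. The median position of these 6 targets relative to the WT mean was -1.47 in mouse 2276, -1.95 in 2278 and -0.18 in 2279, against 0.15, -1.08 and -0.37 for the 10 fatty acid genes. Over the 6 lists together, 57 of 75 tested genes were lower and 18 higher (24 lower and 51 higher when scaled to the citric acid cycle genes, where 10.9% of all genes were lower), 10 (beside 4.99% of all genes) were called lower and 0 higher at the unadjusted threshold, and 0 at an adjusted p under 0.05.

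Neighboring pathways of energy metabolism differed from the fatty acid genes in the order of mice. Of 17 citric acid cycle genes, 16 were lower (median -0.37) with 0 called at an unadjusted or adjusted limma p under 0.05, and of 11 glycolytic genes, 11 were lower (median -0.40, or 0.07 when scaled to the citric acid cycle genes) with 0 called. Without mouse 2276 these medians were -0.80 and -0.83, and without mouse 2279 they were -0.18 and -0.05, the latter with 8 glycolytic genes lower and 3 higher. The gene farthest from 0 was *Idh3a* in the citric acid cycle (-0.74 ± 0.36, limma unadjusted p = 0.082) and *Pgk1* in glycolysis (-0.52 ± 0.39, unadjusted p = 0.230). The citric acid cycle genes had a median position of 0.45 in mouse 2276, -0.77 in 2278 and -0.80 in 2279, and the glycolytic genes of 0.53, -0.73 and -0.77. Mouse 2279 was thus near 2278 for these lists, whereas for the fatty acid genes it was at -0.37, nearer to the WT mice. Beside these values, the markers of other cells moved as follows. Markers of oxidative fibers, the fibers richest in fatty acid oxidation, had higher fitted levels in HrasG12V muscle for 8 of 8 genes (median 2.68), with 0 called at an unadjusted p under 0.05; without WT mouse 2281 the median was 0.65, with 7 of 8 higher, and without mice 2276 and 2281 it was 0.26. In the WT group, the low level of these markers in mouse 2281 accompanied the lowest WT level of all 10 fatty acid genes. Mouse 2278, the lowest of the 6 mice for 8 of the 10, held 1219 FPKM of these markers, against 1748 and 1658 in WT mice 2277 and 2280. Over the 6 mice, the median r of these markers with the mean standardized level of the 10 was 0.19. Leaving aside genes listed at 0 in any library, 2 of 4 fast fiber markers were lower and 2 higher (log2 fold changes of -0.24 to 0.29), and 3 of 4 general muscle markers were lower and 1 higher (-0.47 to 0.09), with 0 called in either list at an unadjusted or adjusted limma p under 0.05. Markers of endothelium, whose cells also express *Cd36* and *Fabp4*, summed to 306, 299.9 and 253 FPKM in WT and 253, 227 and 225 in HrasG12V mice; 7 of 10 were lower (2 of 10 when scaled to the citric acid cycle genes) and 2 were called lower. Adipocyte markers, whose cells also express *Cd36* and *Lpl*, were higher for 8 of 8 genes with 3 called, brown fat markers for 3 of 4 with 2 called, macrophage markers for 7 of 7 with 2 called, and B and T cell markers for 8 of 8 with 7 called. The part of these cells in the levels of the 10 genes was not tested.

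**Figure D5:**
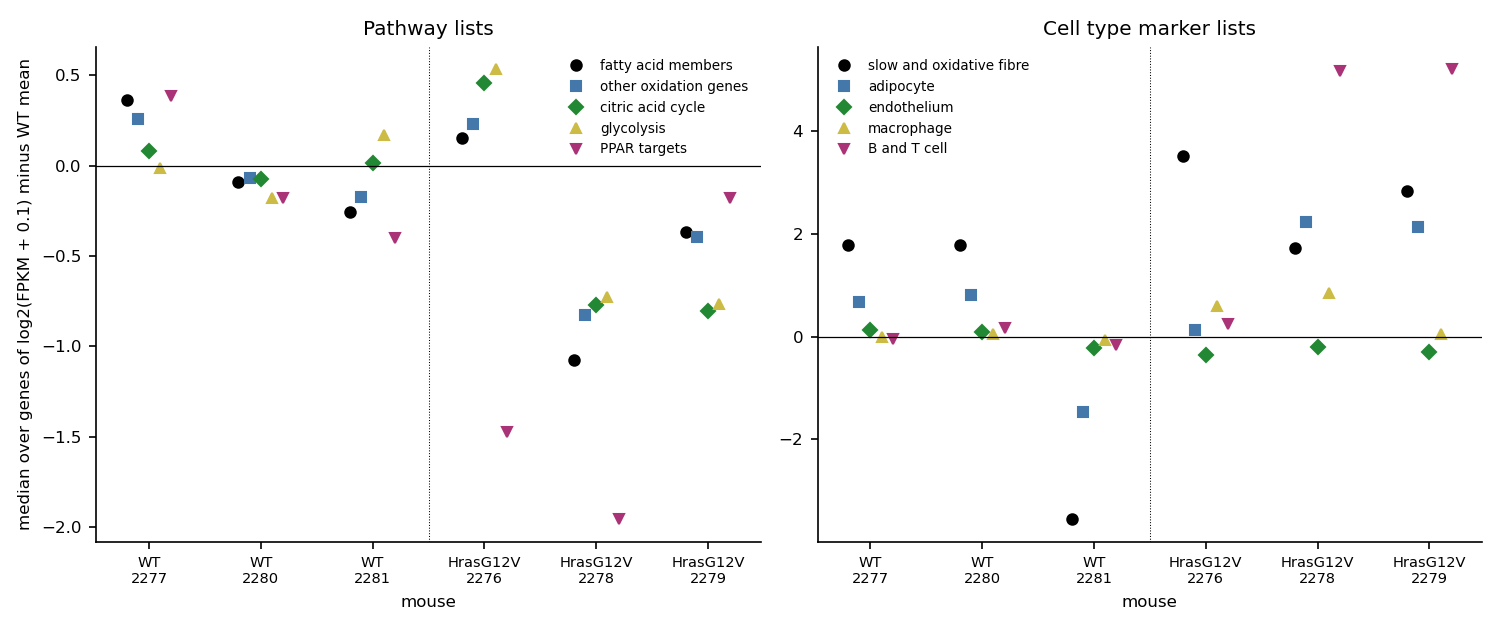
Median over the genes of a list of log2(FPKM + 0.1) minus the WT mean (vertical axes) in each mouse, for pathway lists (left) and cell type marker lists (right). Mouse 2276 lies above 0 for the fatty acid genes, the citric acid cycle and glycolysis but at -1.47 for PPAR targets, and B and T cell markers are high in mice 2278 and 2279 alone.

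The number of the 10 genes called changed with the libraries included and with the scaling. It was 0 without WT mouse 2277 or 2280 (beside 4.72% and 5.17% of all genes), after quantile normalization (12.7%), at the same total FPKM (5.33%) and without variance moderation (9.86%), and *Cd36* alone was called without mouse 2281 or 2279 (4.53% and 11.3%). Without mouse 2276, 4 genes (*Fabp3*, *Cpt2*, *Acadvl* and *Acadm*) passed an unadjusted p under 0.05, beside 29.9% of all genes, and the lowest adjusted p among the 10 was 0.0964. Without mice 2276 and 2281, a choice made after these libraries were seen to stand apart, 5 passed, *Cd36* with the former 4, beside 22.2% of all genes. Without mouse 2278, 8 genes were lower and 2 higher, beside 49.6% of all genes lower, and 0 passed, beside 9.58%. With library weights estimated by limma, which gave mouse 2276 a weight of 0.0933 against 0.73 to 3.29 for the others, 7 passed, beside 22.8% of all genes. None of the 10 passed an adjusted p under 0.05 in any of the 19 analyses.

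The mouse of each genotype in which Y linked transcripts were near 0 could also be set apart. Between WT mouse 2277 and HrasG12V mouse 2276, 7 of the 10 genes were lower in the mutant, with a median difference of -0.23, and 46.5% of all genes were lower. Between the other 4 mice, both mutants lay below both WT mice for 5 of the 10 genes (*Fabp3*, *Cpt1b*, *Cpt2*, *Acadvl* and *Acadm*), with a median difference of -0.59 over the 10, a pattern held by 32.1% of all genes. *Cd36* was -1.51 in the pair without Y linked transcripts and -0.50 among the other 4, where the genotypes overlapped. With the mean log2(FPKM + 0.1) of the 4 Y linked genes as a covariate, the *Cd36* fold change remained -0.84 and its unadjusted p no longer passed 0.05. Whether these differences go with sex was not tested, since the pair without Y linked transcripts holds 1 mouse of each genotype.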

How the data were processed

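The authors sequenced poly(A) RNA from 6 gastrocnemius muscles with a stranded kit and single-end reads. Per the submitters' processing notes, reads were handled with bcl2fastq, TopHat, Cufflinks and Cuffnorm on GRCm38 (mm10); the sources used here do not give versions, annotation or strand settings. The authors deposited FPKM per gene and mouse, normalized across libraries by Cuffnorm. FPKM are not counts: low values did not fall into steps of whole reads, so depth was not known from the files, no count model or counting interval was used, and precision rests on the 3 mice per group.

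Genes with a mean of at least 0.5 FPKM were tested on log2(FPKM + 0.1) with limma 3.58.1 (R 4.3.3; abundance trend, all 6 libraries, no covariate) and Benjamini-Hochberg adjustment over all genes tested; this replaced the unpaired test named in the study's methods because n = 3. The fit was tested on simulated data. Fold changes of low genes are understated by the added 0.1. Two-sided exact permutation tests were used for ratios. The labels carry mouse numbers and no shared replicate numbers, and litters are not given, so no pairing was used. The members and gene lists were chosen with earlier results of these data known. Named were all 10 members; from each list, up to 3 genes at either end of the fold changes with an unadjusted p under 0.05 and a mean of at least 1 FPKM, or else the gene farthest from 0; and the 5 genes most like the members. *Cpt1a*, *Fabp4* and *Ppara* were named after their values were seen. Gene positions are from GENCODE vM21 (GRCm38) and promoters from RefSeq GRCm38.p6, matched by symbol. Alternatives were the pseudocount, the filter, normalization, variance moderation, library weights, the mean log2 level of the Y linked genes as a term, and each mouse left out in turn; leaving out mice 2276 and 2281 together and scaling to citric acid cycle genes were added after the data were seen.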

Additional observations from a re-analysis of the deposited data

Results flagged for a closer look

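*Fabp3* and *Acadvl* drew attention because the difference in the pair without Y linked transcripts was opposite to that among the other 4 mice, where the genotypes did not overlap. In the pair with these transcripts near 0, HrasG12V mouse 2276 was above WT mouse 2277, by 0.11 on the log2 scale for *Fabp3* and 0.08 for *Acadvl*, whereas among the other 4 mice both mutants lay below both WT mice, by -0.97 and -0.69 on average. The gap between these differences was 1.07 for *Fabp3* and 0.77 for *Acadvl*. It was not tested, since the pair holds 1 mouse of each genotype. The mean differences of *Hadha* (0.14 in the pair, -0.38 among the other 4) and *Lpl* (-0.49 and 0.05) also had opposite signs, but for both the genotypes overlapped among the other 4.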

How the results depend on the processing

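The median log2 fold change of the 10 genes stayed below 0 in 18 of 19 other analyses and was 0.01 after scaling to citric acid cycle genes. The number called at an unadjusted p under 0.05 was 1 in the reported analysis, 0 after quantile normalization, after scaling to the same total FPKM, without variance moderation, with the Y linked covariate and after scaling to citric acid cycle genes, 7 with library weights, 5 without mice 2276 and 2281, and 0 to 4 when each mouse was left out. Over all genes the number at an unadjusted p under 0.05 was 1358, and became 712 at a mean of at least 5 FPKM, 712 at the same total FPKM, 3042 with library weights, 2986 without mice 2276 and 2281, 2245 after scaling to citric acid cycle genes and 606 to 4006 when each mouse was left out. At an adjusted p under 0.05 it was 8, and became 5 with a pseudocount of 1, 1 without moderation, 572 with library weights, 484 without mice 2276 and 2281 and 6 to 1374 when each mouse was left out. Of the other pathway genes 10 were called at the unadjusted threshold, 32 with library weights, 32 without mice 2276 and 2281 and 5 to 34 when each mouse was left out. The *Cpt1b* to *Cpt1a* difference of 0.01 became -0.046 with a pseudocount of 1 and ranged from -0.58 to 0.50 when each mouse was left out. Scaling to citric acid cycle genes, which moved the median of all genes to 0.43, gave *Lpl* 0.33, *Acadvl* 0.035, *Acadm* 0.031, *Hadha* 0.26 and *Hadhb* 0.11. Leaving out each mouse gave ranges of -0.46 to 0.20 for *Lpl*, -1.21 to 0.00091 for *Fabp3* and -0.56 to 0.13 for *Hadha*. The cause of these changes was not tested. No paired analysis was possible because the labels give the groups no shared replicate numbers. The files give no depth per library, so no limit from counting was set.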
